A study of Sus scrofa with 19 samples.

Results

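Enzymes of redox balance and detoxification were followed in the uterine lining (endometrium) of young female pigs, called gilts, whose uterine horns were infused with prostaglandin E2 (PGE2) and estradiol (E2). The members were the array's genes of the cytochrome P450 (families CYP1 to CYP4), flavin monooxygenase, aldehyde dehydrogenase, alcohol dehydrogenase, aldo-keto reductase, glutathione transferase, glucuronosyltransferase and sulfotransferase families, and of the superoxide dismutase, catalase, glutathione peroxidase, peroxiredoxin, thioredoxin, glutathione synthesis, heme oxygenase, quinone reductase or metallothionein families, without AKR1B1 and SULT1E1. Of 121 such genes in the pig reference table, 52 had a probe that could be named, and 50 of these were well above background on at least 4 arrays; they stand among 3010 named genes tested. No alcohol dehydrogenase or glucuronosyltransferase was among these 52, and of the glutathione synthesis genes only GSS was. CYP1A2 and GPX5 fell short, each well above background on 1 array, and all 50 members were above background on all 19 arrays. Each gene is described by its brightest probe, and 38 of the 50 had further probes.

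Endometrial RNA of 10 gilts aged 8 months was measured on 19 one-colour arrays. Both horns were cannulated on days 8 to 9 and infused over 24 h, at intervals of 4 h, on days 11 to 12 counted from estrus. In 6 treated gilts (numbered 36, 38, 40, 41, 44 and 47) the hormone horn was given 200 µg PGE2 together with 33.3 µg E2 at each infusion, and the placebo horn on the other side was given 5 mL of saline with 1% ethanol; for gilt 40 only the hormone horn was analysed here. In 4 control gilts (9, 14, 28 and 46) both horns were given placebo, which makes 6 hormone horns, 5 placebo horns and 8 control horns, 4 of them marked L and 4 marked P in the labels. In each of the 5 treated gilts with both horns the mark was P for hormone and L for placebo. Mark and treatment therefore cannot be told apart between the horns of these gilts. The hormone horn of gilt 40 was marked L. Placebo horns shared an animal with a hormone horn, so they are not endometrium of untreated gilts, and every gilt had been cannulated.

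Redox enzymes keep reactive oxygen in check in steps. Superoxide dismutases turn superoxide into hydrogen peroxide, which catalase, glutathione peroxidases and peroxiredoxins remove; thioredoxin and glutathione supply the electrons and are themselves reduced again with NADPH. Detoxification runs from oxidation by cytochromes P450 and reduction by aldo-keto reductases to conjugation with glutathione or sulfate, and several of these enzymes also act on steroids and prostaglandins, the signals of early pregnancy in the uterus. Many of the genes are known targets of the transcription factor NFE2L2, which the cell holds back through KEAP1.

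Values are the log2 of a probe's signal over the 75th percentile of its array, so 0 is the brightness of that percentile. Single values of treated gilts are listed in the order of gilts 36, 38, 40, 41, 44 and 47 for hormone horns and of gilts 36, 38, 41, 44 and 47 for placebo horns. Each array had 79.1% to 88.4% of its spots well above background and no saturated spot. A gene passed at an adjusted p under 0.05 in limma (Benjamini-Hochberg over 39098 probes, gilt as a random block). ESR1, PGR, RBP4 and SPP1, markers of endometrium, were well above background on all 19 arrays; their summed signal, in multiples of the 75th percentile, was 241 to 529 in hormone horns and 183 to 428 in placebo horns, against 80.0 to 229 in control horns. On the first principal component of all probes, which held 33.7% of the variance, both horns of gilt 47 lay apart, at 132.8 for its hormone horn and 155.5 for its placebo horn, and the next highest array, a hormone horn, at 52.76. The hormone horn of gilt 36 lay apart on the second, at -146.9. The summed signal of 5 macrophage markers was 163 in the hormone horn and 190 in the placebo horn of gilt 47, against 11.4 to 27.5 in the other hormone horns, 11.1 to 32.3 in the other placebo horns and 5.78 to 11.6 in control horns. The 4 neutrophil markers summed to 1.12 to 67.3 in hormone horns and 0.20 to 78.5 in placebo horns, against 0.38 to 0.81 in control horns. The 4 endothelial markers summed to 25.4 to 40.2 in hormone horns and 19.9 to 42.4 in placebo horns, against 16.8 to 23.6 in control horns. The 3 stromal markers summed to 228 to 358 in hormone horns and 218 to 270 in placebo horns, against 161 to 235 in control horns. The 7 markers of T and natural killer cells summed to 15.3 and 14.3 in the hormone and placebo horns of gilt 47, to 3.54 to 5.18 in the other hormone horns and 4.68 to 6.05 in the other placebo horns, against 5.62 to 8.25 in control horns. The 3 epithelial markers summed to 81.2 to 163 in hormone horns and 90.3 to 142 in placebo horns. Control horns, at 78.3 to 119, overlapped both. Taken singly, 2 of the 3 passed in hormone horns and 2 in placebo horns against control gilts. Of all named genes, 15.1% and 4.49% did. The part of these cell markers in the results was not tested, and in tissue RNA more cells of a type and more RNA per cell cannot be told apart.

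Hormone horns were set against control gilts to ask which redox and detoxification genes differed in endometrium given PGE2 and E2. Of the 50 genes, 7 were higher in hormone horns and 0 were lower: the sulfotransferase SULT2A1, the peroxide- and superoxide-removing enzymes SOD3, GPX2, PRDX6 and PRDX5, and the thioredoxin pair TXNRD1 and TXN. That is 14% of the members, against 15.1% of all named genes and 11.6% of all probes that passed in either direction. As higher passed 12.7% of named genes and 6.72% of probes, and as lower 2.46% of named genes and 4.93% of probes, so the share of members was near that of named genes. An unadjusted p under 0.05 was found for 17 members (34%), against 32.8% of named genes and 27.1% of probes. The difference was above 0 for 37 of 50 members (74%), against 65.7% of named genes and 51.1% of probes. The median log2 difference was 0.27 over the members, 0.17 over named genes and 0.01 over all probes. With arrays centred on the probes that have a symbol, the median of all probes moved to -0.25 and the members' median to 0.00, with 25 members above 0. The calls were then 3 higher (GPX2, PRDX6 and SULT2A1) and 1 lower (HMOX2), beside 7 and 0 in the scaling used throughout. Of all 39093 probes fitted, 7360 then passed, 1145 of them higher, beside 4553 with 2627 higher in the scaling used throughout. Both scalings subtract 1 value per array from all probes alike. The members' median minus that of all probes, 0.26 under both, could therefore hardly differ and is no check of the result. Arrays were scanned on 3 days, and within days 1, 2 and 3 the members' median difference was 0.40, 0.26 and 0.17, with 0 genes passing in these small subsets; SULT2A1 ranged from 1.87 to 2.42, GPX2 from 0.92 to 1.24 and PRDX6 from 0.83 to 1.30. The sign of 14 of the 50 differences turned when 1 gilt was left out: those of AKR1C1, CAT, CYP1A1, CYP2C42, CYP3A29, CYP4A21, GSTA1, GSTA4, MT1A, MT3, PRDX2, PRDX3, TXNIP and TXNRD2, none of which passed.

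Of the 12 enzymes of peroxide and superoxide removal, 4 rose in hormone horns (33.3%), against 12.7% of named genes and 6.72% of probes. A difference above 0 was found for 10 of the 12 (83.3%; 7 with arrays centred on the probes that have a symbol), against 65.7% of named genes and 51.1% of probes, with a median of 0.50 on the log2 scale. PRDX6, a peroxiredoxin that also reduces oxidised phospholipids, had values of 2.12, 2.09, 2.66, 1.50, 2.53 and 1.54 in hormone horns and of 1.33, 2.01, 1.20, 1.64 and 1.88 in placebo horns. The 8 control horns ran from 0.85 to 1.46, with a median of 1.05. Every hormone horn was thus above every control horn, the 2 lowest only just, while placebo horns overlapped both. Its log2 difference was 0.95 ± 0.22 (SE), or 1.94-fold, with an adjusted p of 0.0113 (limma), and it stayed past the threshold whichever gilt was left out (adjusted p at most 0.0484).

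GPX2, a glutathione peroxidase known from epithelia, had values of -0.08, -0.33, -0.36, 0.53, 0.28 and -0.21 in hormone horns and of -0.69, 0.03, -0.31, -0.66 and -0.08 in placebo horns. Control horns ran from -1.57 to -0.44, with a median of -1.14. All hormone horns were above all control horns here too, and gilt 28 held the highest controls. The log2 difference was 1.04 ± 0.23 (SE; adjusted p = 0.0094, limma), a 2.06-fold level, and it passed without each of the 10 gilts in turn (adjusted p at most 0.0444), but not with slide as a term (0.94; adjusted p = 0.0543). SULT2A1, described with the conjugating enzymes, was the only other member whose hormone horns all lay above all control horns; these 3 of 50 (6%) compare with 7.81% of named genes and 3.85% of probes.

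PRDX5, a peroxiredoxin found in mitochondria, peroxisomes and cytosol, had values of 5.71, 5.93, 6.32, 6.0, 6.32 and 5.37 in hormone horns and of 5.27, 6.14, 5.78, 5.54 and 5.35 in placebo horns. Control horns ran from 5.11 to 5.48, with a median of 5.25. Of the hormone horns only that of gilt 47 fell within the control range, as did the placebo horns of gilts 36 and 47. The log2 difference of 0.67 ± 0.18 (SE; adjusted p = 0.0221, limma) lost its call without gilt 9, 14, 28 or 46, all control gilts, with an adjusted p of at most 0.0745. SOD3, the extracellular superoxide dismutase, had values of -2.31, -1.52, -1.67, -2.48, -1.11 and -2.16 in hormone horns and of -2.49, -1.46, -2.45, -1.34 and -1.61 in placebo horns. Control horns ran from -3.49 to -1.87, with a median of -3.04. The groups overlapped through the L horn of control gilt 9, the highest control at -1.87, whose P horn was the lowest at -3.49. The log2 difference was 1.05 ± 0.32 (SE, adjusted p = 0.0407, limma). It did not pass without gilt 14, 28, 38, 40, 44 or 46 (adjusted p up to 0.115), with normexp or with scan day as a term (adjusted p = 0.0625 and 0.0504). Over all 28 alternatives it passed in 11, with differences of 0.25 to 1.31.

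The remaining peroxide and superoxide enzymes did not pass. GPX1, the abundant cytosolic glutathione peroxidase, had a log2 difference of 0.33 ± 0.13 (SE; adjusted p = 0.106, limma) by its brightest probe, but 4 of its 5 other probes passed, with differences of 0.81 to 1.00. GPX4, which reduces lipid peroxides in membranes, had a difference of 1.04 ± 1.14 (SE; adjusted p = 0.597) that rests on the L horn of control gilt 28: this spot read -4.10, against 3.36 to 4.12 in hormone horns, 3.47 to 4.19 in placebo horns and 3.56 to 4.05 in the other control horns. The other 2 GPX4 probes read 2.65 and 2.73 on that array and gave log2 differences of 0.09 and 0.15. GPX3, the secreted form, was 0.69 ± 0.56 (SE; adjusted p = 0.465), with gilt 36 low in both horns, at 0.95 and 1.64. SOD1, PRDX2, PRDX3, CAT and GPX6 had differences of 0.21, 0.12, 0.02, -0.04 and -0.16, with adjusted p from 0.363 to 0.918; SOD1, PRDX2 and PRDX3 turned below 0 with arrays centred on the probes that have a symbol, PRDX2 and PRDX3 also with normexp, and PRDX3 with quantile normalization. All 15 probes of PRDX3, the mitochondrial peroxiredoxin, had differences between 0.02 and 0.41, and none passed.

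**Figure D1:**
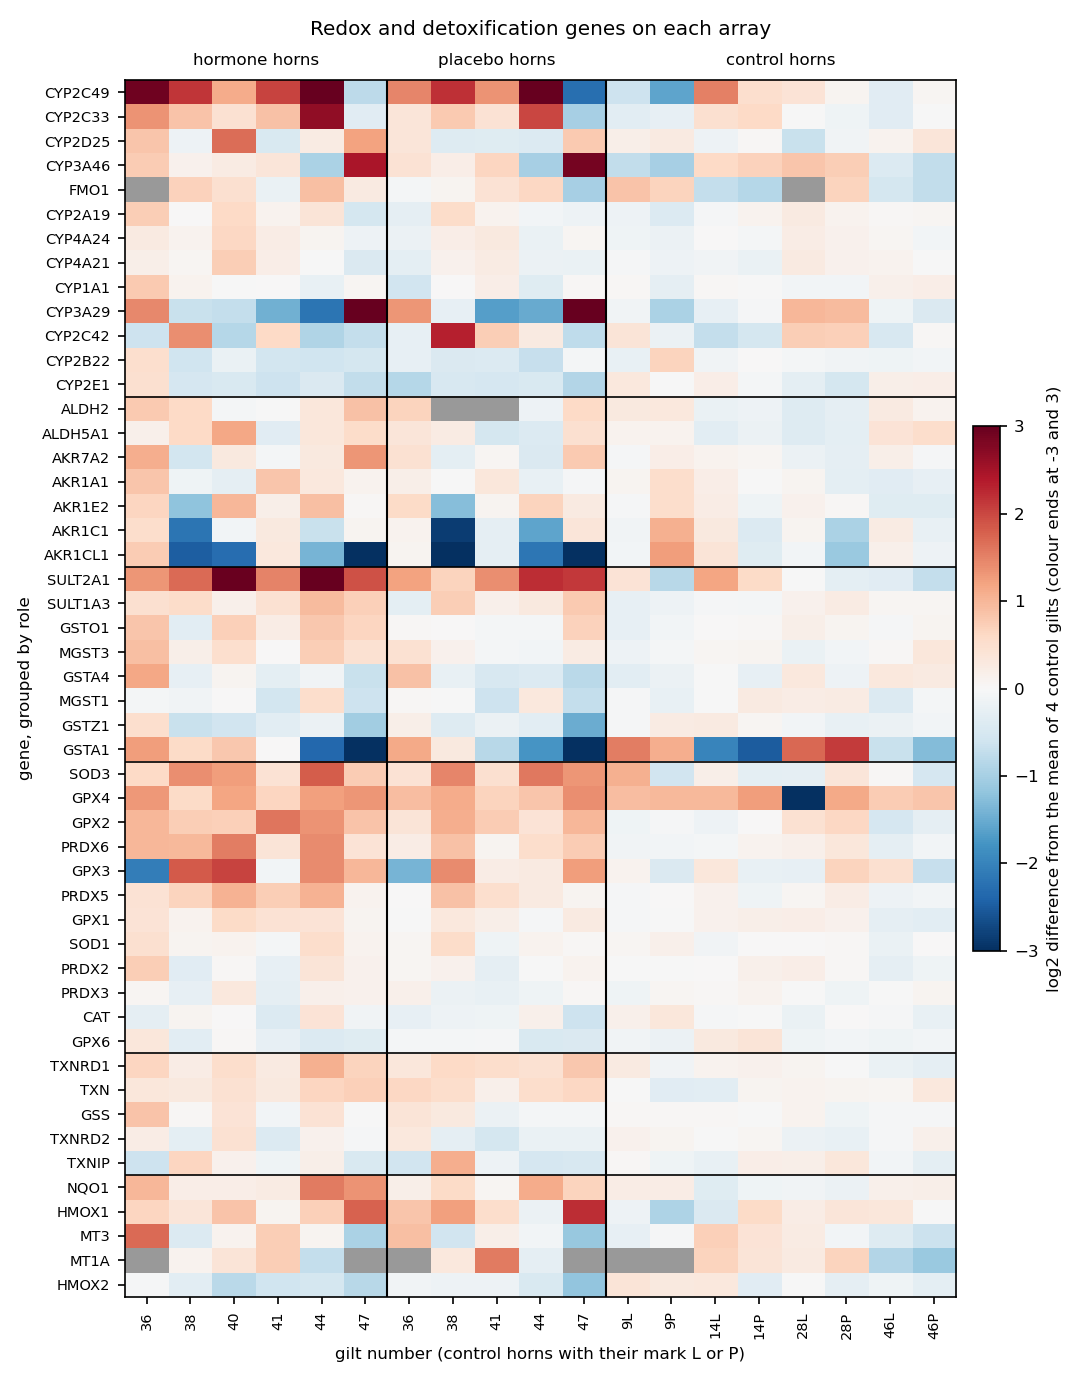
Each column is 1 array and each row 1 of the 50 genes, grouped by role; colour is the log2 difference from the mean of the 4 control gilts, and grey marks a value left out for an outlier flag. SULT2A1, PRDX6 and GPX2 are red in all 6 hormone horns, gilt 47 stands out in both horns for CYP3A29 and CYP3A46, and the GPX4 row is shifted by the 1 low control spot at -4.10.

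The group for thioredoxin and glutathione supply also holds the thioredoxin inhibitor TXNIP. Of its 5 genes, 2 rose in hormone horns (40%), against 12.7% of named genes and 6.72% of probes, and neither did so under every setting. TXNRD1, the cytosolic reductase that recharges thioredoxin with NADPH, had values of 2.35, 1.92, 2.22, 1.96, 2.78 and 2.36 in hormone horns and of 2.05, 2.29, 2.24, 2.16 and 2.51 in placebo horns. Control horns ran from 1.43 to 1.96, with a median of 1.74. It was the only member whose placebo horns all lay above all control horns (2% of members, against 5.22% of named genes and 3.05% of probes), while 5 of 6 hormone horns did. The log2 difference was 0.56 ± 0.17 (SE; adjusted p = 0.0346, limma) and lost its call without gilt 9, 14, 28, 36, 44 or 46 (adjusted p up to 0.0973).

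TXN, thioredoxin itself, had values of 4.49, 4.45, 4.62, 4.44, 4.79 and 4.87 in hormone horns and of 4.77, 4.67, 4.30, 4.69 and 4.77 in placebo horns. Control horns ran from 3.81 to 4.46, with a median of 4.23. Hormone horns lay above all but the highest control horn, and gilt 41 was the lowest treated gilt in both horns. The log2 difference of 0.46 ± 0.14 (SE; adjusted p = 0.0436, limma) did not pass without gilt 9, 14, 28, 38, 40, 44 or 47 (adjusted p up to 0.113). It passed under none of the 4 other scalings, with differences of 0.19 to 0.43 and adjusted p of 0.0648 to 0.31. TXNRD2, the mitochondrial reductase, had a log2 difference of 0.01 ± 0.15 (SE; adjusted p = 0.965), which turned below 0 under the 4 other scalings. TXNIP, which binds and inhibits thioredoxin, had one of -0.05 ± 0.24 (SE; adjusted p = 0.929). GSS, glutathione synthetase, was 0.27 ± 0.15 (SE; adjusted p = 0.268), and 1 of its 3 probes passed at 0.66.

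Conjugating enzymes held the largest difference of any member. SULT2A1, which adds sulfate to hydroxysteroids such as dehydroepiandrosterone and to bile acids, had values of 6.36, 6.74, 8.00, 6.54, 8.14 and 6.95 in hormone horns and of 6.24, 5.70, 6.44, 7.26 and 7.15 in placebo horns. Control horns ran from 4.20 to 6.22, with a median of 4.89. The highest control horns belonged to gilt 14, and the hormone horn of gilt 36 exceeded them only slightly. The log2 difference was 2.08 ± 0.36 (SE), a 4.24-fold level, with an adjusted p of 0.0029 (limma); it passed without each of the 10 gilts (adjusted p at most 0.0173), and the gene's second probe gave 2.50 (adjusted p = 0.00234).

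Of the other 7 conjugating enzymes none passed, although 2 were close. SULT1A3, a sulfotransferase that acts on catecholamines in humans, ranged from 5.81 to 6.60 in hormone horns (median 6.17) and 5.35 to 6.45 in placebo horns, against 5.40 to 5.91 in control horns (median 5.66), a log2 difference of 0.55 ± 0.18 (SE; adjusted p = 0.0559, limma), and its other probe passed at 0.63. MGST3, a microsomal glutathione transferase that also takes part in leukotriene synthesis, ranged from 3.47 to 4.38 in hormone horns and 3.40 to 3.92 in placebo horns, against 3.27 to 3.80 in control horns, a difference of 0.46 ± 0.15 (SE; adjusted p = 0.0573). GSTO1, GSTZ1, MGST1 and GSTA4 had differences of 0.48, -0.38, -0.13 and -0.01, with adjusted p of 0.129 to 0.985. GSTA1, an alpha-class glutathione transferase, had the widest range of gilt means, 6.55, and a group difference of -0.76 ± 0.97 (SE; adjusted p = 0.659), which was 0.06 without gilt 47. It read 3.66, 3.0, 3.21, 2.42, 0.06 and -2.42 in hormone horns, 3.56, 2.71, 1.59, 0.64 and -2.04 in placebo horns, and -0.07 to 4.50 in control horns. Both horns of control gilt 14 were the lowest controls and both of gilt 28 the highest.

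**Figure D2:**
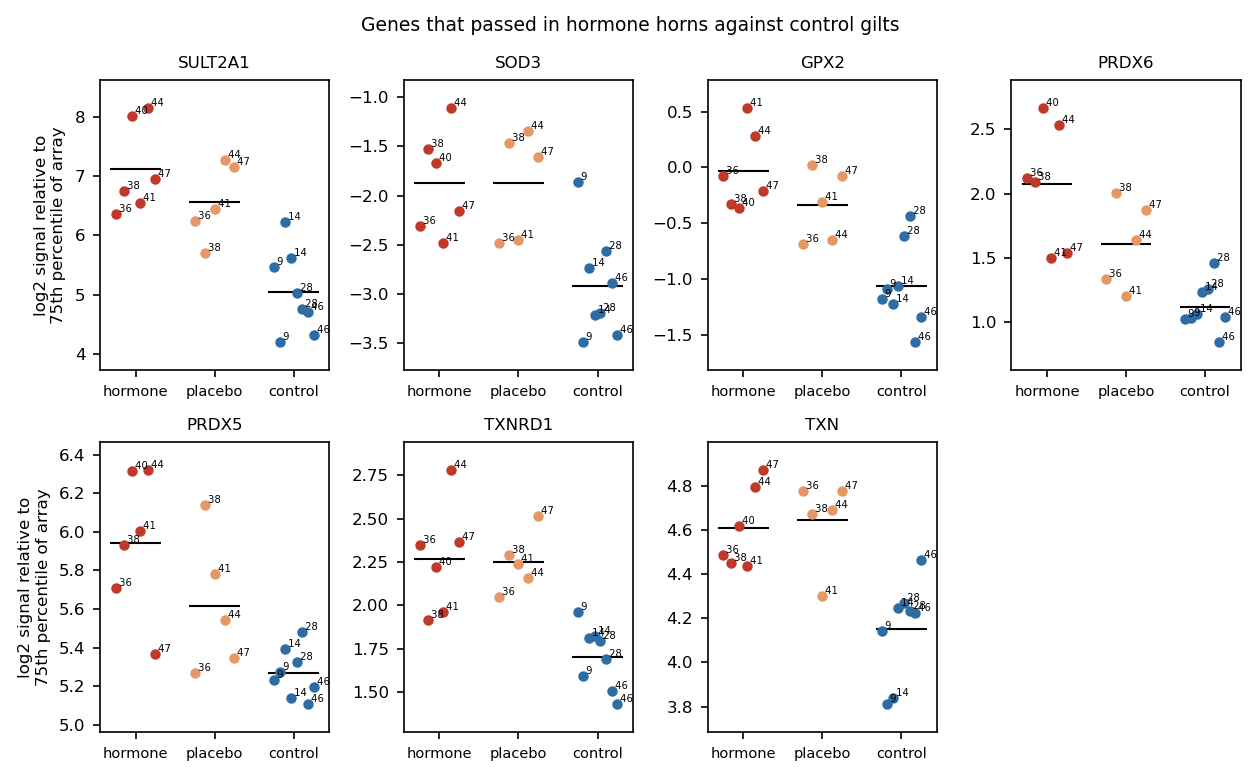
Each panel shows 1 of the 7 genes that passed in hormone horns against control gilts, with the log2 signal of every array as a point labelled by gilt and the group mean as a line; each panel has its own axis. Hormone horns lie above all control horns for SULT2A1, GPX2 and PRDX6, and placebo horns for TXNRD1.

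In the group for heme, quinones and metals, none of 5 genes passed. NQO1, the quinone reductase that is a classic NFE2L2 target, lay just outside the threshold: it read -1.23, -2.01, -2.01, -1.98, -0.67 and -0.87 in hormone horns, and -2.03, -1.65, -2.16, -1.10 and -1.55 in placebo horns, against -2.58 to -1.99 in control horns. Gilts 36, 44 and 47 were well above the control range in their hormone horns and the other 3 lay close to its upper end. The log2 difference was 0.76 ± 0.24 (SE; adjusted p = 0.0501, limma), 2 of its 3 probes passed, and the brightest passed without gilt 38, 40 or 41 (adjusted p down to 0.0308).

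HMOX1, the inducible heme oxygenase, ranged from 2.57 to 4.26 in hormone horns and 2.30 to 4.69 in placebo horns, against 1.57 to 3.06 in control horns, a log2 difference of 0.74 ± 0.37 (SE; adjusted p = 0.209). Both horns of gilt 47 were its highest, at 4.26 and 4.69, and these were also the arrays with the highest macrophage marker sums; the part of those cells was not tested. HMOX2, the constitutive form, was 0.28 to 1.09 in hormone horns and -0.08 to 1.00 in placebo horns, against 0.77 to 1.50 in control horns (-0.52 ± 0.19, SE; adjusted p = 0.0886), and passed as lower with arrays centred on the probes that have a symbol. The metallothioneins MT3 and MT1A, which bind zinc and copper, had differences of 0.21 ± 0.34 and 0.13 ± 0.43 (SE; adjusted p = 0.726 and 0.887); both turned below 0 with arrays centred on the probes that have a symbol, MT1A also with normexp and in the authors' values, and MT1A had values for only 4 hormone, 3 placebo and 6 control horns because of outlier flags. Without gilt 36 the difference of MT3 was -0.08, and that of MT1A ran from -0.38 to 0.41 with 1 gilt left out.

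None of the 13 oxidising enzymes passed, with log2 differences of -0.38 to 1.95 and a median of 0.19. CYP2C49, a pig CYP2C enzyme, had the second largest difference of all members, 1.95 ± 0.73 on the log2 scale (SE; adjusted p = 0.092). It read 0.93, 0.15, -0.88, 0.04, 2.25 and -2.77 in hormone horns and -0.53, 0.20, -0.64, 1.51 and -4.26 in placebo horns, against -3.58 to -0.48 in control horns, so gilt 47 was far below the other treated gilts in both horns. Without gilt 47 the difference was 2.49 (adjusted p = 0.00755). CYP2C33, of the same family, was also highest in gilt 44 and lowest in gilt 47 in both treatments, with a difference of 0.98 ± 0.39 (SE; adjusted p = 0.11), which was 1.24 without gilt 47 (adjusted p = 0.023). Probes of related CYP2C genes can bind one another's RNA, which was not tested.

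CYP3A29 and CYP3A46, pig members of the family of the human drug-oxidising enzyme CYP3A4, went the other way in the same animal. CYP3A29 was 1.40 in the hormone horn and 1.16 in the placebo horn of gilt 47, against -5.00 to -1.36 in the other hormone horns, -4.44 to -1.49 in the other placebo horns and -3.75 to -1.80 in control horns. CYP3A46 was 0.22 in the hormone horn and 0.65 in the placebo horn of gilt 47, against -3.18 to -1.47 in the other hormone horns, -3.24 to -1.59 in the other placebo horns and -3.22 to -1.39 in control horns. Neither gene passed (0.10 ± 0.83 and 0.50 ± 0.50, SE, hormone horns minus control gilts), and both rest on gilt 47, without which the differences were -0.72 and 0.11 (adjusted p = 0.414 and 0.876). That of CYP3A29 also turned below 0 without gilt 9 or 36 and with arrays centred on the probes that have a symbol. CYP2E1, which oxidises ethanol, a component of the vehicle in every horn, ranged from -5.36 to -4.14 in hormone horns and -5.49 to -5.07 in placebo horns, against -5.15 to -4.30 in control horns. Its log2 difference was -0.38 ± 0.23 in hormone horns and -0.64 ± 0.24 in placebo horns (SE; adjusted p = 0.306 and 0.114). Without gilt 36, whose hormone horn was the highest of all at -4.14, both passed as lower (adjusted p = 0.0276 in hormone horns and 0.0386 in placebo horns, where the difference was then -0.56). CYP1A1, the classic target of the aryl hydrocarbon receptor, was 0.12 ± 0.22 (SE; adjusted p = 0.772). The other oxidising enzymes CYP2D25, FMO1, CYP2A19, CYP4A24, CYP4A21, CYP2C42 and CYP2B22 had differences of 0.55, 0.45, 0.22, 0.19, 0.12, -0.18 and -0.33, with adjusted p of 0.243 to 0.834. Those of CYP1A1, CYP2A19, CYP4A24 and CYP4A21 turned below 0 with arrays centred on the probes that have a symbol.

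Dehydrogenases and reductases held the largest negative difference. AKR1CL1, an aldo-keto reductase related to the steroid-reducing AKR1C enzymes, read 4.83, 1.60, 1.79, 4.39, 2.68 and 0.16 in hormone horns and 4.15, 1.06, 3.80, 1.91 and 0.35 in placebo horns, against 2.96 to 5.32 in control horns. Treated gilts fell into those within the control range in both horns, 36 and 41, and those below it, 38, 40, 44 and 47. The log2 difference was -1.49 ± 0.67 in hormone horns and -1.90 ± 0.69 in placebo horns (SE; adjusted p = 0.158 and 0.11), and without gilt 36 the placebo difference was -2.34 and passed (adjusted p = 0.039). AKR1C1, which reduces progesterone in humans, had a difference of -0.34 ± 0.49 (SE; adjusted p = 0.706), but its 6 probes ran from -2.12 to 0.75, with 1 above 0 and 5 below. ALDH2, the mitochondrial enzyme that clears acetaldehyde, was 0.43 ± 0.19 (SE; adjusted p = 0.17, with 3 placebo horns left after outlier flags), and 3 of its 9 probes passed with differences of 0.67 to 0.92. ALDH5A1, which oxidises succinic semialdehyde, and the reductases AKR7A2, AKR1A1 and AKR1E2 had differences of 0.41, 0.40, 0.29 and 0.26, with adjusted p of 0.274 to 0.645, and AKR1E2 turned below 0 with arrays centred on the probes that have a symbol.

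**Figure D3:**
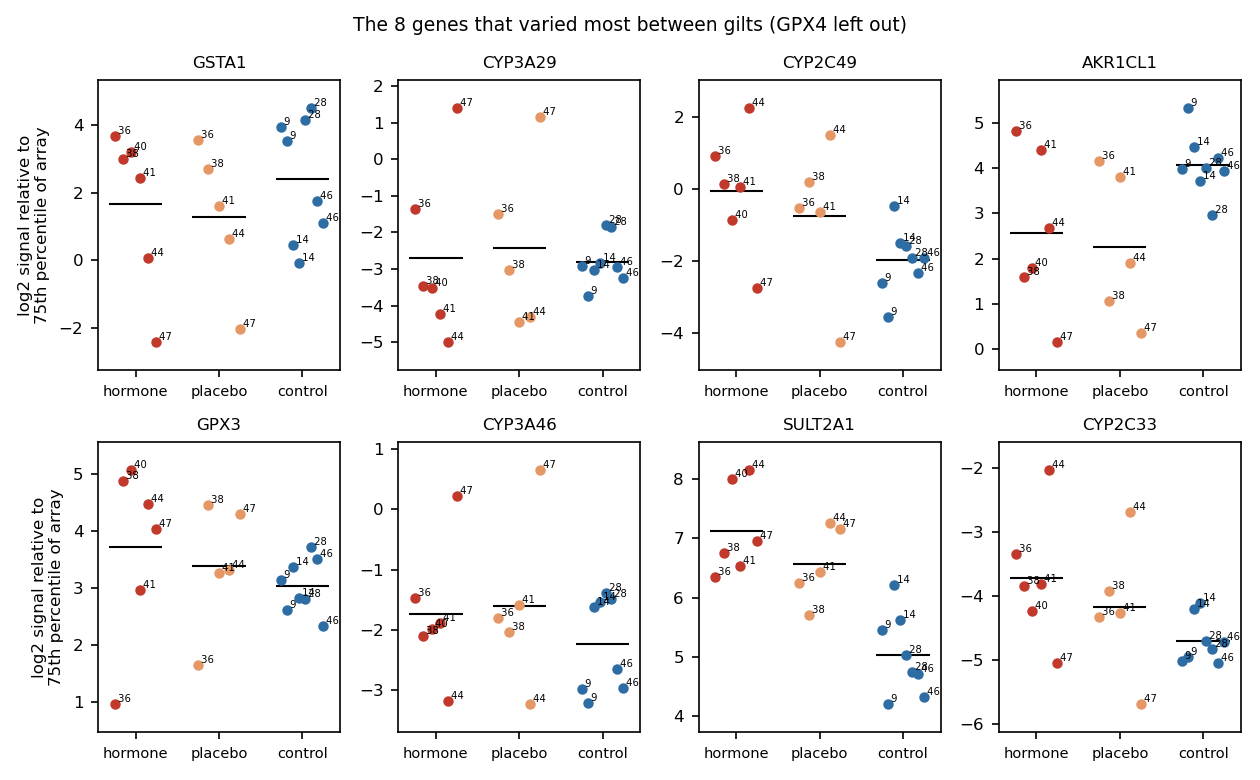
Log2 signal of every array, labelled by gilt, for the 8 genes with the widest range of gilt means, GPX4 left out because of its 1 low spot; lines are group means and each panel has its own axis. Both horns of gilt 47 lie close together and apart from the rest in CYP3A29 (1.40 and 1.16) and GSTA1 (-2.42 and -2.04).

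Placebo horns of treated gilts were set against control gilts to ask whether the same genes differed in the horn that had received no hormone. SULT2A1 alone passed (1.61 ± 0.37 on the log2 scale, SE, a 3.06-fold level; adjusted p = 0.0281), which is 2% of members, against 4.49% of named genes and 4.42% of probes. As higher passed 3.65% of named genes and 2.46% of probes. An unadjusted p under 0.05 was found for 11 members (22%), against 27.4% of named genes and 23.9% of probes. SULT2A1 did not pass without gilt 9, 14, 28, 46 or 47 (adjusted p up to 0.101). Because both comparisons use the same control horns, they are not independent, and their values are given side by side for the genes that passed in hormone horns. SOD3, TXN and TXNRD1 had differences of 1.07, 0.49 and 0.54 in placebo horns (adjusted p = 0.0649, 0.0591 and 0.07), beside 1.05, 0.46 and 0.56 in hormone horns. GPX2, PRDX6 and PRDX5 had 0.69, 0.55 and 0.39 in placebo horns (adjusted p = 0.0922, 0.146 and 0.206), beside 1.04, 0.95 and 0.67 in hormone horns. The median difference of placebo horns was 0.11 over the members, 0.07 over named genes and -0.06 over all probes, and 32 of 50 members (64%) were above 0, against 58.3% of named genes and 43.9% of probes (19 members with arrays centred on the probes that have a symbol).

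**Figure D4:**
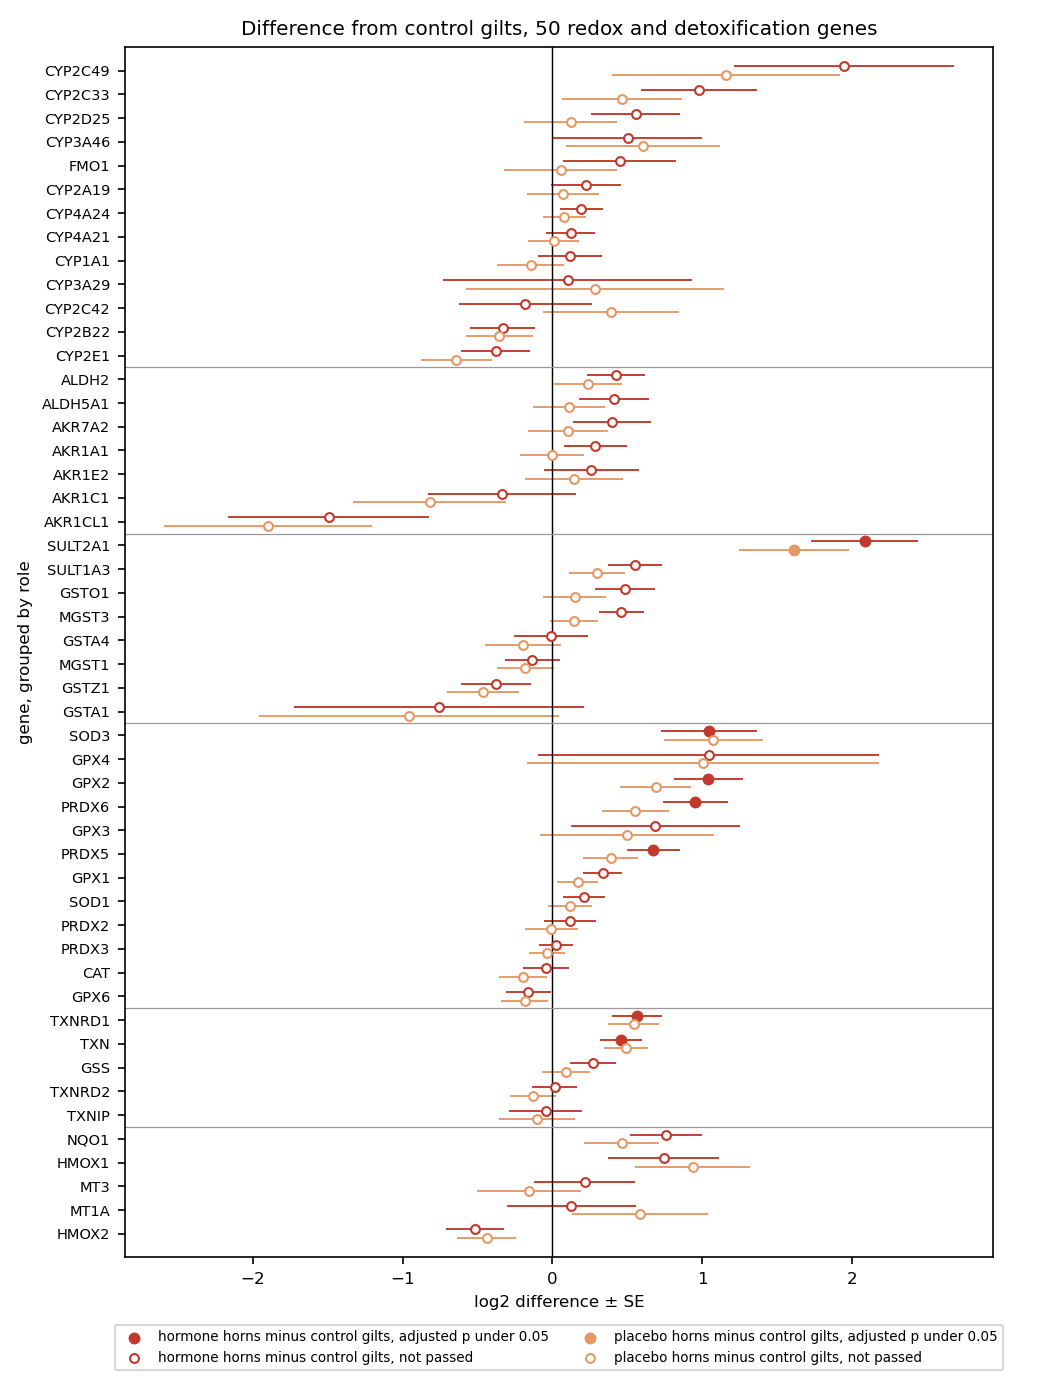
Points are the fitted log2 differences of all 50 genes, in hormone horns (red) and placebo horns (orange) minus control gilts, with bars of 1 SE; filled points passed at an adjusted p under 0.05. Filled red points are SULT2A1, SOD3, GPX2, PRDX6, PRDX5, TXNRD1 and TXN, and the only filled orange point is SULT2A1.

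Hormone and placebo horns were then compared directly, with gilt as a random block. This takes out differences between animals only in part, since the fit also holds the treated gilt without a placebo horn. Gilt as a fixed effect takes them out, and there 0 members passed, with a median log2 difference of 0.14. In the random-block fit none of the 50 genes passed, against 1 of 39098 probes (0.00256%) and 0 of the named genes. At an unadjusted p under 0.05 there were 5 members (10%), against 12% of named genes and 9.92% of probes. These 5 were MGST3, PRDX6, GSTO1, PRDX5 and GPX2, with log2 differences of 0.32 ± 0.11, 0.40 ± 0.15, 0.34 ± 0.14, 0.28 ± 0.12 and 0.35 ± 0.16 (SE; adjusted p from 0.362 to 0.493, limma). The sign was positive for 42 of 50 members (84%), against 65.9% of named genes and 62.6% of probes, and for 35 to 39 of them under the other scalings. The median difference was 0.17 over the members, 0.07 over named genes and 0.06 over all probes. SOD3, TXN and TXNRD1 had differences of -0.03 ± 0.22, -0.03 ± 0.10 and 0.02 ± 0.12 (SE) in this fit. That of TXNRD1 turned below 0 with quantile normalization and 2 other scalings.

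By role, all 7 dehydrogenases and reductases and all 8 conjugating enzymes had a positive difference, the first also under the 4 other scalings, while 2 of 5 genes for heme, quinones and metals did (40%), against the 65.9% of named genes above. The share of positive signs was highest in 2 animals. In gilt 44, 45 of 50 members (90%) were higher in the hormone horn, with a median log2 difference of 0.42, against 58% of all probes and a median of 0.08. In gilt 36 it was 38 of 48 members (79.2%), with a median of 0.42, against 61.3% of all probes and a median of 0.17. In gilts 38, 41 and 47 the share was 30.6%, 57.1% and 59.2% of members, against 45.1%, 50.6% and 52.7% of all probes, and the members' medians were -0.10, 0.05 and 0.04. Gilts 36 and 44 were both scanned on day 1, and within days 1, 2 and 3 the fitted median difference between horns was 0.42, 0.17 and -0.05; animal and scan day cannot be told apart here. The P and L horns of control gilts 9, 14, 28 and 46 differed by medians of -0.05 to 0.01, with 38.8% to 54% of members higher in the P horn. PRDX6 shows the pattern: its hormone horn exceeded its placebo horn by 0.79, 0.09, 0.30 and 0.89 in gilts 36, 38, 41 and 44 and differed by -0.34 in gilt 47. GSTO1 was higher by 0.80 and 0.87 in gilts 36 and 44, and differed by -0.33, 0.29 and -0.05 in gilts 38, 41 and 47.

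MGST3, MT3 and CYP2C33 were the members whose hormone horn was above the placebo horn in all 5 gilts with both (6% of members, against 6.31% of named genes and 5.33% of probes); ALDH2 was higher in the 3 gilts where both horns had a value. MGST3 was higher by 0.46, 0.05, 0.05, 0.81 and 0.20 in gilts 36, 38, 41, 44 and 47, so 2 of the 5 differences were close to 0, and the P horns of the 4 control gilts also exceeded their L horns, by 0.01 to 0.30. MT3 was higher by 0.80, 0.16, 0.56, 0.17 and 0.19 and CYP2C33 by 0.98, 0.08, 0.46, 0.65 and 0.65 in the same order of gilts. When the difference between control horns was subtracted, none of the 50 genes passed, and 39 (78%) had a positive difference, against 65.1% of named genes and 59.9% of probes. Only SULT2A1 (2% of members, against 3.59% of named genes and 3.24% of probes) had an unadjusted p under 0.05, with a difference of 1.10 ± 0.38 (SE; adjusted p = 0.999, limma). Its P horn was below its L horn in all 4 control gilts, with differences of -1.26, -0.60, -0.27 and -0.38 in gilts 9, 14, 28 and 46. This held for 5 members in all (10%), against 8.21% of named genes and 7.72% of probes. No member passed between the control horns themselves, where GPX4, through its 1 low spot, and SULT2A1 had an unadjusted p under 0.05 (4% of members, against 2.16% of named genes and 2.39% of probes).

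Further probes bear on how far 1 probe stands for its gene. Of 159 tested probes of the members, 31 passed in hormone horns against control gilts (19.5%, against 11.6% of all probes). Probes of 1 gene are not independent, and no matching share was taken over the probes of all named genes. By the brightest probe, 14% of members passed, against 15.1% of named genes. The 31 probes belonged to 14 genes, of which 7 were called only by a probe that was not the brightest. All 6 probes of PRDX6 passed, with log2 differences of 0.95 to 1.22, as did all 4 of TXNRD1, at 0.56 to 0.81, and both probes of PRDX5, TXN and SULT2A1; GPX2 and SOD3 had 1 probe each. The 7 further genes were GPX1, NQO1, ALDH2, SULT1A3, GSS, CYP2C49 and CAT, where CAT, catalase, passed in 1 of 9 probes (0.61) while the other 8 lay between -0.08 and 0.16. Of the 38 genes with several probes, 26 had probes of 1 sign and 12 had both signs. TXNIP ran from -0.05 to 1.33, CYP2A19 from -0.14 to 1.01, GPX6 from -0.16 to 0.99 and CYP2C33 from -0.30 to 0.98, and CYP2B22, CYP2E1, CYP4A24, CYP1A1, MGST1 and MT1A straddled 0 within -0.38 and 0.21.

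**Figure D5:**
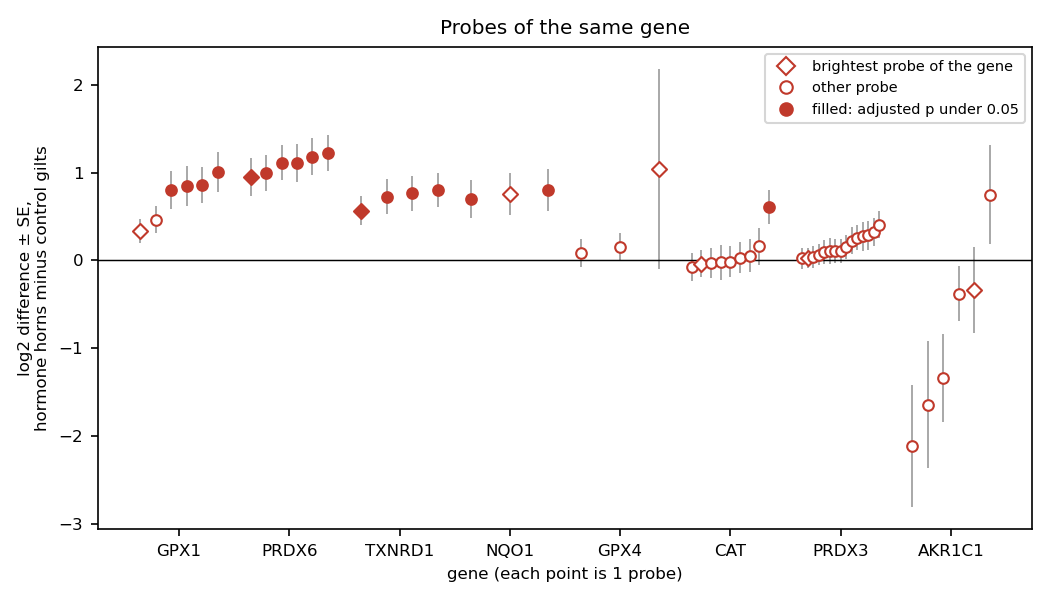
Log2 difference of hormone horns minus control gilts for every tested probe of 8 genes, with bars of 1 SE; diamonds mark the brightest probe and filled points an adjusted p under 0.05. All 6 PRDX6 and all 4 TXNRD1 probes are filled, GPX1 passes in 4 probes other than its brightest, and the 6 AKR1C1 probes run from -2.12 to 0.75.

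Regulators and partner enzymes of the same pathways were read from a list of 72 genes, of which 32 were measured here. The list was chosen with earlier results of these data known, and it holds AKR1B1, which the members leave out. Its shares therefore describe the list and cannot be weighed against those of named genes. In hormone horns against control gilts, 8 of the 32 were higher (25%, against 12.7% of named genes and 6.72% of probes) and 2 lower (6.25%, against 2.46% and 4.93%). The median log2 difference was 0.41, against 0.17 over named genes and 0.01 over all probes. In placebo horns 1 was higher (3.12%, against 3.65% of named genes and 2.46% of probes) and 1 lower (3.12%, against 0.831% and 1.96%). In hormone minus placebo horns 0 passed. GLRX, glutaredoxin, which uses glutathione to restore protein thiols, was higher by 1.90 ± 0.46 in hormone horns and 1.88 ± 0.48 in placebo horns (SE; adjusted p = 0.0152 and 0.0355, limma). PTGR1, a reductase of prostaglandin metabolites, was higher by 1.68 ± 0.27 (SE; adjusted p = 0.00248), with 1.18 to 2.83 in hormone horns, against 0.24 to 0.65 in control horns, which it did not overlap, and by 0.94 ± 0.19 in hormone horns over placebo horns (SE; adjusted p = 0.102). TKT and TALDO1, enzymes of the pentose phosphate pathway that serves NADPH supply, were higher by 1.13 ± 0.29 and 0.75 ± 0.17 (SE; adjusted p = 0.0196 and 0.0096). AKR1B1, TPMT, CYB5A and PON2 were higher by 2.04, 1.49, 1.10 and 0.65, while CBR2, a carbonyl reductase, and ABCG2, an efflux transporter, fell by 1.69 and 1.19 on the log2 scale; in placebo horns CBR2 fell by 2.01. PTGR1 and TPMT passed without each of the 10 gilts (adjusted p at most 0.0155 and 0.0451). AKR1B1, GLRX, TKT and CYB5A did not pass in hormone horns without gilt 9, 14 or 28, CBR2 without 9, 14, 28 or 44, and ABCG2 without 14, 28 or 41 (adjusted p up to 0.114). In placebo horns GLRX did not pass without gilt 9, 14, 28, 38 or 41, nor CBR2 without 9, 14, 28 or 47 (adjusted p up to 0.116). KEAP1 had a difference of 0.24 ± 0.13 (SE; adjusted p = 0.258); NFE2L2 and AHR were not among the measured genes.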

How the data were processed

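Linear spot intensity values were deposited per array as made by Agilent Feature Extraction 10.7.3.1 per the file headers, background-subtracted and spatially detrended within each array; the submitters' processing notes name version 9.1. The authors' deposited value table holds log2 values for the same arrays (r of 0.996 to 0.999 with the scanner values; column medians of 7.72 to 7.83); its normalization and centring were not given in the sources used here. It was used as an alternative. Control spots and outlier-flagged values (1160 among tested probes) were left out, spots of a probe were averaged, and each processed signal was divided by its array's 75th percentile before log2 was taken. Tests covered 39098 of 43603 probes, those flagged well above background on 4 arrays or more. Symbols came from RefSeq accessions matched to the Sscrofa11.1 gene table: 6876 probes matched 1 gene, 6768 of them a usable symbol (3123 symbols), and 36727 were unnamed.

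The 4 groups were fitted with limma 3.58.1 in R 4.3.3, with eBayes trend and gilt as a random block (duplicateCorrelation, statmod 1.5.0; correlation 0.536). Control gilts stand for the average of their L and P horns. Same-numbered arrays come from the same animal per the labels; their deviations correlated at 0.334 to 0.795 in treated and 0.403 to 0.628 in control gilts, against at most 0.143 with other gilts. Each gilt's horns shared a slide, so gilt and slide cannot be told apart there. In simulated data over 38533 probes, changes of 1 and 2 log2 units were recovered for 58% and 93% of changed probes in hormone horns minus control gilts, 64% and 87% in placebo horns minus control gilts, and 74% and 97% in hormone minus placebo horns. The simulated noise was normal, with 1 correlation within gilts for all probes and no outlying animals. Few probes were changed in it, so the shares recovered may differ in these arrays. The number of arrays limits the precision.

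The members, gene lists and rules were chosen with earlier results of these data known. Genes were named if they passed in hormone horns minus control gilts, placebo horns minus control gilts or hormone minus placebo horns, if in their role they had 1 of the 2 largest differences of hormone horns from control gilts or the largest between horns, or if their probes differed in sign, plus up to 8 listed partner genes that passed and KEAP1. GPX1, GPX3, CYP3A29, CYP3A46, HMOX2, MGST3, MT3, SULT1A3, GSTO1, TALDO1, PON2 and the members given in passing were described after their values were seen. Alternatives covered scaling, background correction (normexp, offset 50, on median signals, since the files hold no mean signal), the authors' values, the filter, the probe of a gene, the block, scan day, slide, array weights and each gilt left out.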

Additional observations from a re-analysis of the deposited data

Results flagged for a closer look

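In 9 of 104 groups of 4 to 6 arrays, 1 array lay far from the others. Only members named by the rules above were checked. They were chosen from the same values, so the rate of 1 in 20 groups by chance alone need not hold for them. The hormone horn of gilt 36 accounted for 3 of the 9. It had the highest CYP1A1, at -3.68, against -4.69 to -4.36 in the other hormone horns, the highest CYP2B22, at -2.54, against -3.65 to -3.25, and the highest CYP2E1, at -4.14, against -5.36 to -5.06. The P horn of control gilt 9 had the lowest CYP2A19, at -2.17, against -1.70 to -1.66 in the other P horns, and the highest CYP2B22, at -2.37, against -3.15 to -3.03. The brightest GPX4 probe read -4.10 in the L horn of control gilt 28, against 3.56 to 3.77 in the other L horns. GPX6 was highest in the L horn of control gilt 14, at -2.72, against -3.15 to -3.12, and that gilt's P horn was the highest P horn, at -2.63. TXN was lowest in the placebo horn of gilt 41, at 4.30, against 4.67 to 4.77 in the other placebo horns. TXNIP was highest in the placebo horn of gilt 38, at 7.24, against 5.58 to 6.02. The hormone horns of these gilts were also the lowest hormone horn for TXN, at 4.44, and the highest for TXNIP, at 6.80. What set these arrays apart was not tested.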

How the results depend on the processing

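Of the 50 genes, 7 passed in hormone horns minus control gilts. The count was 4 with arrays centred on the probes that have a symbol, 13 with slide as a term (only PRDX6 and SULT2A1 of the 7, while GPX2, PRDX5, SOD3, TXN and TXNRD1 lost their call and 11 others gained one), 0 within each of the 3 scan days, and 3 to 9 with 1 gilt left out, falling to 4 without gilt 9, 44 or 46 and to 3 without gilt 14 or 28. Of all probes, 4553 passed in the main fit, 2627 of them higher. That number was 7360 with arrays centred on the probes that have a symbol (1145 higher), and 5565 with slide as a term. It ran from 1454 to 5282 with 1 gilt left out. Without gilt 9, 14, 28, 44 or 46 it was 1753, 1454, 1614, 2873 or 3829. The fit without the replicate block, which ignores that both horns come from 1 gilt, gave 11 members and 6972 probes. Averaging each control gilt's horns, with no replicate block, gave 4 members and 2191 probes. Over all probes, placebo horns minus control gilts gave 1728 calls in the main fit and 4993 when centred on the probes that have a symbol. There were 3570 without the replicate block and 3160 with slide as a term. Among members this comparison gave 1 call. It gave 2 when centred on the probes that have a symbol, by the median over probes or without the hormone horn of gilt 36. It gave 6 without the replicate block, 8 with slide as a term (SULT2A1 and 7 others), and 0 within each scan day, with control horns averaged and no replicate block, with only the groups compared, or when gilt 47 was left out together with the hormone horn of gilt 36; leaving out 1 gilt gave 0 to 4. Only slide 1 held gilts of both kinds, so slide as a term rests on gilt 36 against gilt 9. Hormone minus placebo horns gave 0 calls under all 28 alternatives, the replicate block as a fixed effect included. Of 18 called gene results with 504 alternative values, 344 stayed past the threshold, 160 did not and 0 changed sign. Of 25 results not called, 30 of 700 values passed the threshold, 662 stayed as they were and 8 changed sign: AKR1CL1 in hormone horns with slide as a term (0.080), AKR1B1 in placebo horns within scan day 2 (-0.014), TPMT in placebo horns with slide as a term (-0.036) and within scan day 1 (-0.087), ABCG2 in placebo horns within scan day 1 (0.15), and between horns within scan day 3 GPX2 (-0.24), PRDX5 (-0.094) and PRDX6 (-0.12). These 25 do not hold every member, MT1A for one. With 1 gilt left out, the sign turned for 14 of 50 members in hormone horns minus control gilts. It turned for 13 in placebo horns minus control gilts and for 12 in hormone minus placebo horns. The causes were not tested.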
